A study of Homo sapiens and Mus musculus with 4 samples.

Results

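Peaks of 2 to 5 kb are the middle width class of the ATF4 peaks of mouse bone marrow. They are the intervals on chromosomes 1 to 19 whose end minus start was at least 2000 and below 5000 bp, and 6534 of the 81297 peaks there met that rule, or 8.04% (Wilson 95% interval 7.85 to 8.23%). On the same chromosomes 73623 peaks were under 2 kb and 1140 were 5 kb or wider. The peaks came from chromatin immunoprecipitation and sequencing (ChIP-seq) of bone marrow cells of C57BL/6 mice with an anti-ATF4 antibody, in 1 ChIP library set against 1 input library of marrow chromatin without antibody. No treatment, age, sex or number of animals is given in the sources used here, and no replicate and no ATF4-deficient marrow was analysed here. The same series profiled the human acute myeloid leukaemia line KG1a, in which 0 of 873 peaks were 2 kb or wider and the widest was 1183 bp.

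The study concerns ATF4 in adult blood stem cells, and its marrow list addresses where ATF4 sits in blood-forming tissue. ATF4 is a basic leucine zipper transcription factor that is translated when protein synthesis is slowed by amino acid shortage, endoplasmic reticulum stress or haem shortage. It binds DNA as a dimer, often with a C/EBP family partner, and is known for switching on genes of amino acid supply, tRNA charging and the stress response. ATF4 is also known for a part in blood stem cells and in red cell development. A transcription factor that binds a short site is usually seen as a short interval, whereas wider intervals arise where enrichment runs on without dropping below the peak caller's threshold. Width therefore reflects the stretch of enrichment, the threshold and the sequencing depth together.

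The list has 3 columns, for chromosome, start and end, and holds no peak height, score or summit. Read depth is unknown, so the precision of any one peak cannot be stated. Intervals on shares and medians below cover counting error only, and neighbouring peaks of 1 list are not independent. No test between width classes was made, and values of peaks under 2 kb and of 5 kb or more are given beside those of 2 to 5 kb as a description. Positions are GRCm38, counted from 1. A mouse gene annotation and a mouse genome sequence were not used here, so peaks are named by position, and genes, promoters, motifs and sequences were not analysed here.

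These peaks were chosen by their width alone, so width is given only to describe them. Their median width was 2781 bp, the middle 50% ran from 2327 to 3500 bp, and they covered 19.5 Mb, or 26.1% of all peak bases on chromosomes 1 to 19. Narrow members prevailed, as 2377 of them (36.4%) were under 2.5 kb and 390 (5.97%) were 4.5 kb or more. The width distribution ran on through both bounds without a step. There were 539 peaks of 2000 to 2099 bp just inside the lower bound, and 573 of 1900 to 1999 bp just outside it. At the upper bound 64 peaks measured 4900 to 4999 bp, and 69 measured 5000 to 5099 bp. Both sides of the lower bound stood at similar places in the list, with a median place 15.3% of the way down just inside and 17.1% just outside. At the upper bound the median places were 6.19% just inside and 6.97% just outside.

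**Figure D1:**
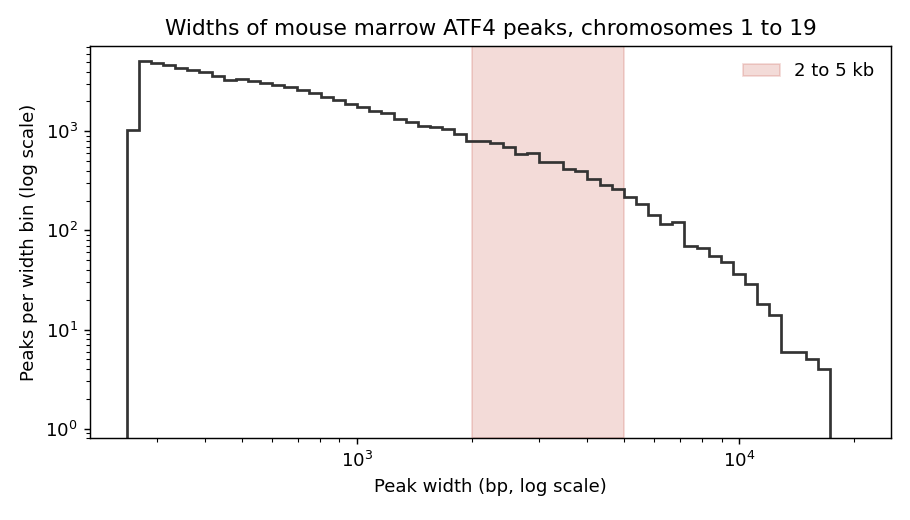
Number of mouse marrow ATF4 peaks per width bin on chromosomes 1 to 19, with both axes on log scales and the range of 2 to 5 kb shaded. The line declines through both bounds without a gap or a second maximum, and the shaded range holds 6534 of 81297 peaks.

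Every autosome held peaks of 2 to 5 kb, from 167 on chromosome 18 to 581 on chromosome 5. Part of that range follows chromosome length and overall peak number, so the share of each chromosome's own peaks was used. That share was 9.58% on chromosome 5 (Wilson 95% interval 8.86 to 10.3%) and 9.28% on chromosome 19 (8.09 to 10.6%), the highest among the 19 autosomes. It was 6.34% on chromosome 18 (5.47 to 7.34%), 6.88% on chromosome 3 (6.15 to 7.70%) and 7.03% on chromosome 12 (6.26 to 7.89%), the lowest. The difference between chromosomes 5 and 18 was 3.24 percentage points (95% interval 2.01 to 4.39). This pair was chosen as the highest and the lowest, so the interval is too narrow for a choice among 19 chromosomes. On 14 autosomes the interval held the overall share of 8.04%, on 2 it lay above it and on 3 below it. Median width differed little between chromosomes and ran from 2653 bp on chromosome 3 to 2910 bp on chromosome 10.

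Counted per length, chromosome 5 had 3.83 peaks of 2 to 5 kb per Mb and chromosome 11 had 3.79, against 2.66 per Mb over all 19 autosomes. Chromosome 3 had 1.77 per Mb and chromosome 18 had 1.84. The ratio of chromosome 5 to chromosome 3 was 2.16 for peaks of 2 to 5 kb and 1.55 for peaks of any width. Chromosome 11 had the highest number of peaks of all widths among the 19, 43.2 per Mb, and a share of 8.76% (8.03 to 9.55%), whose interval just reached the overall 8.04%.

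**Figure D2:**
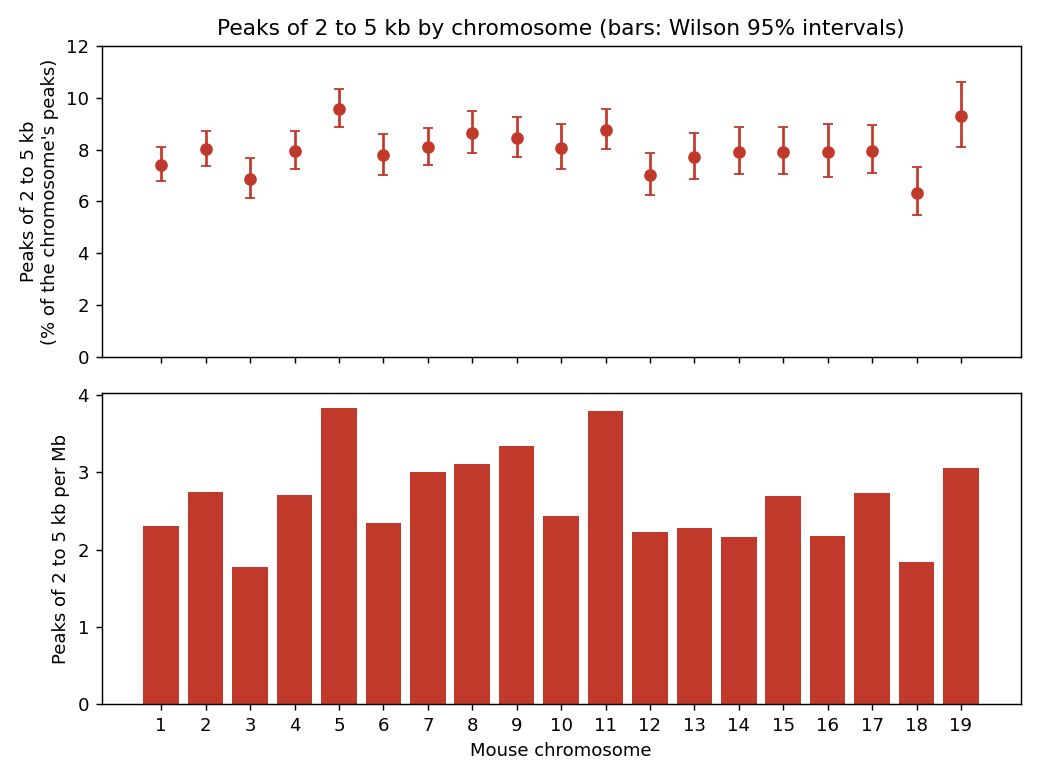
Upper panel, peaks of 2 to 5 kb as a percentage of all peaks on each mouse chromosome, with Wilson 95% intervals that cover counting error only; lower panel, peaks of 2 to 5 kb per Mb. Chromosome 5 is highest in both, at 9.58% and 3.83 per Mb, and chromosome 18 has the lowest share, at 6.34%.

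Along the chromosome, peaks of 2 to 5 kb were more frequent toward the high-coordinate end. Mouse autosomes have the centromere at the low-coordinate end, so this is the end away from it. Each chromosome was divided into 10 equal sections between its first and last peak. Section 10 held 1022 peaks of 2 to 5 kb, 9.96% of its peaks (Wilson 95% interval 9.40 to 10.6%), and section 1 held 445, or 6.63% (6.06 to 7.26%). Over sections 6 to 10 together the share was 8.67% (8.41 to 8.93%), against 7.25% (6.99 to 7.52%) over sections 1 to 5. The share was higher in sections 6 to 10 on 15 of 19 autosomes, and the exceptions were chromosomes 13, 14, 16 and 17. On chromosome 5 it was 11.1% in sections 6 to 10 and 7.01% in sections 1 to 5, the widest difference of the 19. Without chromosome 5 the shares were 8.44% and 7.27%, so the direction did not rest on that chromosome. The sections toward that end also held more peaks of any width, 10256 in section 10 and 6707 in section 1, of which 193 and 61 were 5 kb or wider.

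At a finer scale the chromosomes were cut into 2410 windows of 1 Mb, of which 2035 (84.4%) held at least 1 peak of 2 to 5 kb. The median window held 2, with an interquartile range of 1 to 4. The richest 494 windows (20.5%) were enough to hold 50% of the peaks of 2 to 5 kb. The matching value for peaks of other widths was not measured here. The richest window was on chromosome 5 from 119 to 120 Mb, with 29 peaks of 2 to 5 kb among 111 peaks, and the next was on the same chromosome from 137 to 138 Mb, with 23 among 129. Without these 2 windows the share on chromosome 5 was 9.08% (Wilson 95% interval 8.37 to 9.84%). Chromosome 4 from 133 to 134 Mb held 16 among 101 peaks, and chromosome 5 from 127 to 128 Mb held 15 among 65. A further 4 windows held 14 each. On chromosome 2 from 165 to 166 Mb these were among 112 peaks, and on chromosome 5 from 120 to 121 Mb among 73. On chromosome 4 they were among 102 peaks from 142 to 143 Mb and among 85 from 153 to 154 Mb. At the other extreme, 375 windows (15.6%) held none. The longest empty runs were of 4 windows, on chromosome 7 from 20 to 24 Mb and on chromosome 8 from 18 to 22 Mb. Those stretches held 37 and 72 peaks of other widths. Whether peaks of 2 to 5 kb were fewer there than their overall share of 8.04% would give was not tested.

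Where other peaks were dense, those of 2 to 5 kb took a larger share of all peaks. In windows with 11 to 20 peaks of other widths they made up 7.15% of peaks (Wilson 95% interval 6.61 to 7.73%). The share was 7.50% (7.16 to 7.86%) with 31 to 40 others, 9.83% (9.29 to 10.4%) with 51 to 70, and 10.8% (9.81 to 11.8%) with 71 or more. The 77 windows with at most 10 others gave 8.29%, on only 43 peaks of 2 to 5 kb (6.21 to 10.97%). Peaks of 5 kb or more did likewise, from 0.883% of peaks with 11 to 20 others to 2.43% with 71 or more. A count around each peak gave the same direction. Of peaks with 0 others within 50 kb, 6.30% were 2 to 5 kb wide (5.56 to 7.14%), and of peaks with 13 or more others, 10.2% were (9.22 to 11.2%). For peaks of 5 kb or more these shares were 0.740% and 2.62%. Inside the class the median width was 2779 bp with 0 others and 2829 bp with 13 or more. The rule bounds these widths on both sides, so these medians cannot show how width in general goes with crowding.

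**Figure D3:**
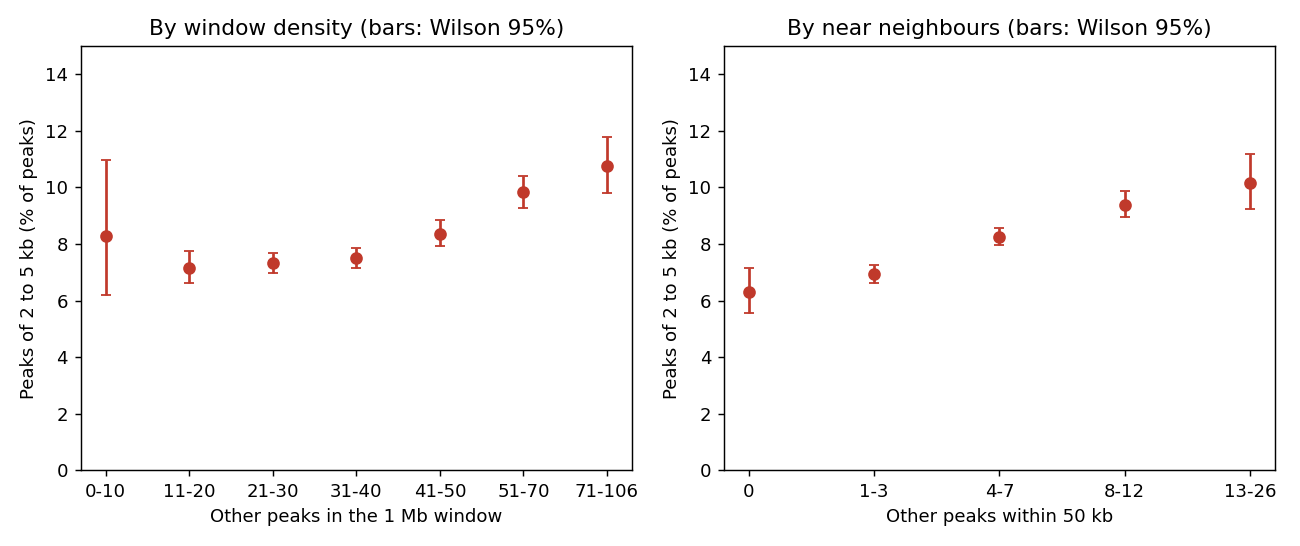
Peaks of 2 to 5 kb as a percentage of all peaks, with Wilson 95% intervals; left, by the number of peaks of other widths in the same 1 Mb window; right, by the number of other peaks within 50 kb. The share runs from 7.15% to 10.8% across windows with more than 10 others, and from 6.30% to 10.2% from 0 to 13 or more near neighbours.

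The nearest other peak usually stood close by. For peaks of 2 to 5 kb the median gap from edge to edge was 0.720 kb (95% interval 0.688 to 0.760 kb), against 1.20 kb for peaks under 2 kb (1.18 to 1.22 kb) and 0.636 kb for peaks of 5 kb or more (0.576 to 0.746 kb). A neighbour within 1 kb was found for 3746 of the 6534, 57.3% (Wilson 95% interval 56.1 to 58.5%), against 45.8% (45.4 to 46.2%) of peaks under 2 kb and 59.1% (56.2 to 61.9%) of peaks of 5 kb or more. Neighbours within 3 kb on both sides were found for 1524, or 23.3%. The share was 18.9% of peaks under 2 kb and 24.4% of peaks of 5 kb or more. Gaps below 268 bp did not occur in any class, and the narrowest peak of the list was 265 bp wide. Measured from centre to centre the order turned round, at 2.93 kb for peaks of 2 to 5 kb and 2.10 kb for peaks under 2 kb, since that distance includes the peak's own extent.

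Surroundings were also somewhat denser farther out than around peaks under 2 kb. In the first 5 kb from an edge, other peaks numbered 0.750 per side for peaks of 2 to 5 kb and 0.685 for peaks under 2 kb. Between 20 and 25 kb there were 0.225 and 0.205 per 5 kb, and between 95 and 100 kb 0.221 and 0.193. Within 50 kb the median number of other peaks was 5 in both classes, with upper quartiles of 8 and 7, and within 100 kb it was 9 and 8. For peaks of 5 kb or more the value in the first 5 kb was 0.746. Farther out it was 0.255 between 20 and 25 kb and 0.246 between 95 and 100 kb. Between 70 and 75 kb it was 0.216, against 0.222 for peaks of 2 to 5 kb. Within 100 kb the median number around peaks of 5 kb or more was 10.

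The nearest neighbours were mostly under 2 kb, though somewhat less often than peaks of the list. The neighbour was under 2 kb for 5750 of the 6534 (88.0%), where such peaks made up 90.6% of the list. It was another peak of 2 to 5 kb for 650 (9.95%, Wilson 95% interval 9.25 to 10.7%), against 8.04% of the list. It was 5 kb or wider for 134 (2.05%, 1.73 to 2.42%), where 1140 of the 81297 peaks were that wide. For both of these wider classes the share in the list lay below the interval. Peaks under 2 kb had a peak of 2 to 5 kb as their nearest neighbour in 8.33% of cases (8.13 to 8.53%). The lowest gap of 268 bp also occurred between 2 peaks of this class, on chromosome 2 at the peak from 169868349 to 169871667.

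**Figure D4:**
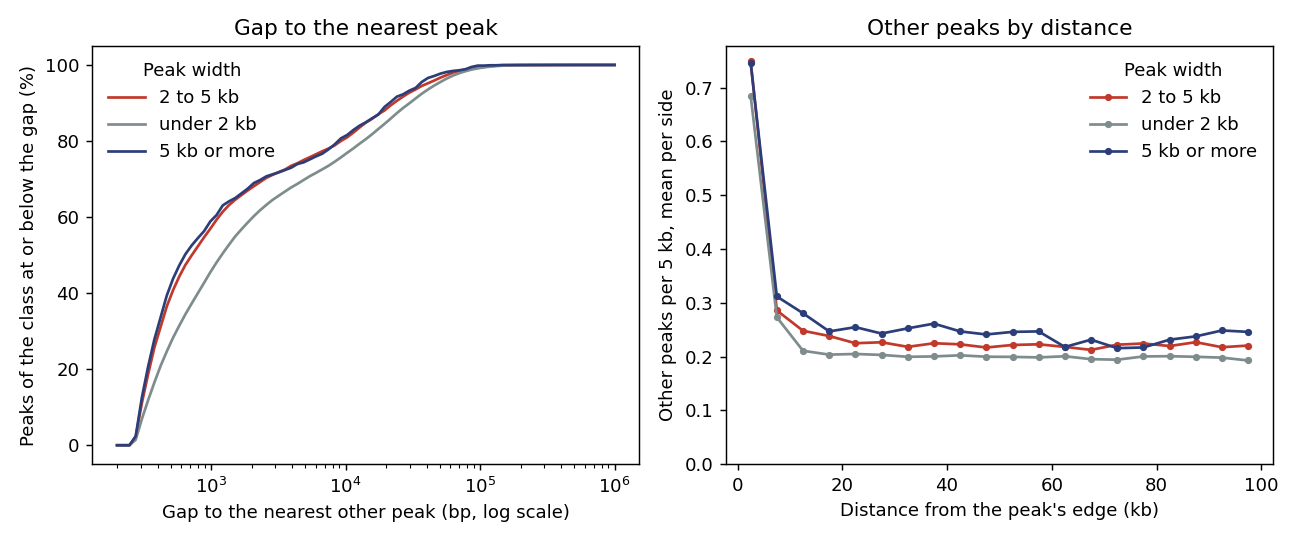
Left, percentage of peaks whose nearest other peak lies at or below a gap (log scale), by width class; right, mean number of other peaks per 5 kb and side against distance from the peak's edge. The curve for 2 to 5 kb lies close to that for 5 kb or more and above that for under 2 kb on the left, and every class has its densest surroundings in the first 5 kb on the right.

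Some peaks of 2 to 5 kb stood near another of their class, but most did not. The median gap to the next peak of the same class was 79.2 kb (95% interval 74.6 to 83.2 kb), with an interquartile range of 18.2 to 207 kb and a highest value of 2.92 Mb. Chains with gaps of at most 3 kb held 819 of the 6534, or 12.53%. With gaps of at most 0.0125 Mb allowed, 5167 of the 6534 stood alone and 1367 (20.9%) formed 637 chains, mostly pairs, of which there were 561. Chains of 3 numbered 63 and chains of 4 numbered 9. Gaps inside a class depend on its size, and this class is 8.04% of the list. Matching values for other sets of peaks of this size were not measured here, so these counts only describe the class.

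The longest chains had 5 members, and 4 chains reached that length, 3 of them on chromosome 5. The chain on chromosome 17 ran from 73523021 to 73552776, and its 5 members of 2237 to 4770 bp with 1 narrow peak covered 58.9% of 29.8 kb. Its first 3 members, of 4664, 3027 and 4770 bp, were parted by gaps of only 293 and 768 bp. On chromosome 5 a chain from 119556512 to 119601303 held 6 narrow peaks between its members, and a chain from 119701926 to 119744811 held none. These 2 chains lay 101 kb apart inside the richest 1 Mb window. The remaining chain, from 141185664 to 141211726 on chromosome 5, covered 54.8% of 26.1 kb with 6 peaks. Places in the deposited list varied within a chain. In the chain on chromosome 17 they ranged from place 4586 to place 62627, and in the chain at 141 Mb from place 2519 to place 68389. The chain that starts at 119556512 spanned places 4637 to 9218 and the one that followed it places 1268 to 13585, and each had a pair of members at consecutive places.

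At the other end, 230 peaks of 2 to 5 kb (3.52%, Wilson 95% interval 3.10 to 3.99%) had no other peak within 50 kb. The share was 4.61% (4.46 to 4.76%) of peaks under 2 kb and 2.37% (1.63 to 3.42%) of peaks of 5 kb or more. The most isolated peak of 2 to 5 kb, 2564 bp wide on chromosome 17 from 28629211 to 28631774, had its nearest peak 455 kb away. The next, 3890 bp wide on chromosome 5 from 95501542 to 95505431, had gaps of 1749 kb on the low-coordinate side and 341 kb on the other. In the deposited list the median place of these 230 was 8.95% of the way down, against 10.9% for those with 13 or more neighbours.

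The deposited order placed peaks of 2 to 5 kb early. Their median place was 10.6% of the way down the list of 83088 peaks (95% interval 10.3 to 10.8%), against 54.5% (54.2 to 54.8%) for peaks under 2 kb and 4.79% (4.57 to 5.01%) for peaks of 5 kb or more. The first 25% of the list held 5728 of the 6534, 87.7% (Wilson 95% interval 86.8 to 88.4%), against 18.4% of peaks under 2 kb and 99.6% of peaks of 5 kb or more. The last 50% held 116 of them, or 1.78%. This pattern was seen on each autosome, as the share in the first 25% ran from 84.4% on chromosome 18 to 90.9% on chromosome 5. Inside the class, place followed width. Those of 2 to 2.5 kb had a median place of 14.0%, and those of 4.5 to 5 kb of 6.48%.

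The very top of the list was not where these peaks were most frequent. Among the first 1000 places, 137 autosomal peaks were 2 to 5 kb wide, or 14.0%, while 770 were under 2 kb and 74 were 5 kb or more. Split into parts of 5% each, the autosomal peaks of part 1 were 2 to 5 kb wide in 28.9% of cases (Wilson 95% interval 27.5 to 30.3%), those of part 2 in 46.4% (44.9 to 47.9%) and those of part 3 in 33.6% (32.2 to 35.1%). Of all 6534, these parts held 17.998%, 28.96% and 21.04%. From there the share of a part's peaks declined to 12.1% in the fifth part and 0.843% in the tenth. Peaks of 5 kb or more were most frequent in the first part, where 601 of the 1140 stood.

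**Figure D5:**
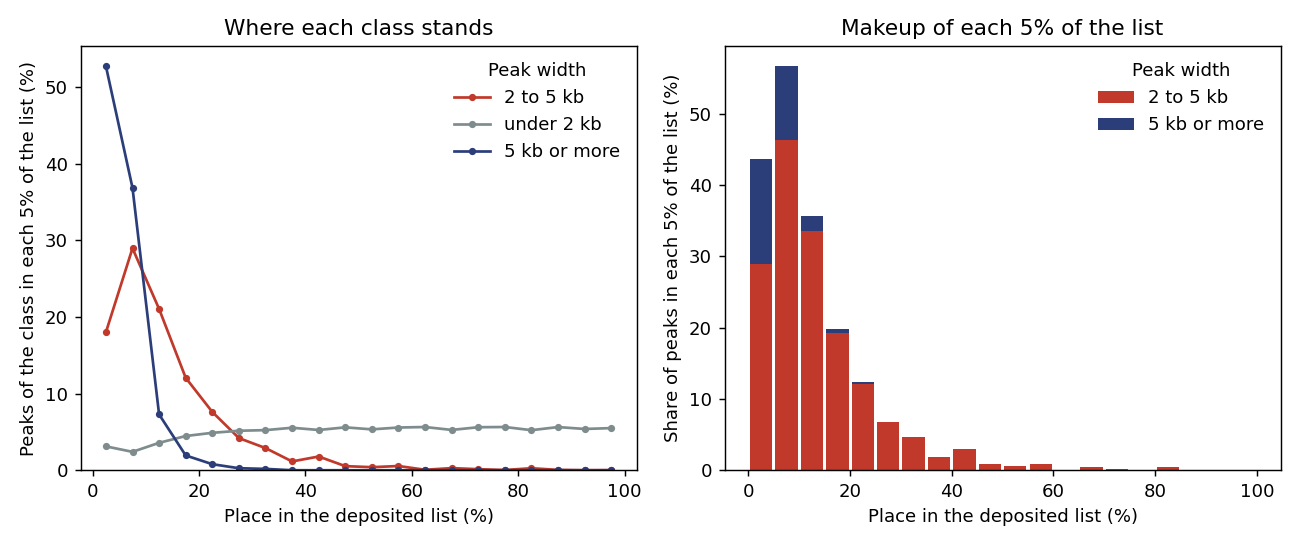
Left, percentage of each width class that falls in each 5% of the deposited list; right, share of peaks of 2 to 5 kb and of 5 kb or more among all peaks on chromosomes 1 to 19 in each 5% of the list. Peaks of 2 to 5 kb have their maximum in the second part, at 46.4% of its peaks, and peaks of 5 kb or more in the first.

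Parts of the order follow position. The list falls into 1537 stretches that each run by chromosome name and position, with a median length of 3 peaks. Stretches of 1000 peaks or more numbered 14, began at place 10892 and held 62.3% of the list. Of the peaks of 2 to 5 kb, 1441 (22.1%) lay in those long stretches, against 66.3% of peaks under 2 kb and 1.67% of peaks of 5 kb or more. By place 8770, before those stretches began, 50% of the class had already been listed. This share is therefore not independent of the early place of the class. Inside a stretch the place follows position by definition. The labels and the processing notes do not name the measure behind the sorting.

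Spacing changed along the order. In the first 1000 places peaks of 2 to 5 kb had a median gap of 6.00 kb to the nearest peak (95% interval 2.78 to 10.1 kb), against 14.7 kb (13.6 to 16.1 kb) for peaks under 2 kb in the same places. In places 1001 to 5000 the medians were 1.18 kb (1.03 to 1.48 kb) and 13.3 kb (12.53 to 14.5 kb). In places 10001 to 20000 they had come close together, at 0.618 kb (0.574 to 0.670 kb) and 0.682 kb (0.657 to 0.708 kb). After place 20000 they were 0.664 kb (0.589 to 0.742 kb) and 1.21 kb (1.19 to 1.23 kb). Between peaks of 2 to 5 kb and peaks under 2 kb the difference in nearness to other peaks was therefore widest in the first 5000 places. Peaks of 5 kb or more had lower medians there than either. These were 0.956 kb (0.531 to 6.10 kb) in the first 1000 places and 0.779 kb (0.634 to 0.984 kb) in places 1001 to 5000.

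The first 15 peaks of 2 to 5 kb in the list stood between places 18 and 166 and on 10 chromosomes. Chromosome 6, with 5.34% of the class, held 4 of the 15, which was not tested. Their widths ran from 2007 to 3680 bp and their gaps to the nearest peak from 0.831 to 58.4 kb. More than 10 kb from any other peak lay 6 of the 15, and 1261 of all 6534 (19.3%). The first, at place 18, lay on chromosome 6 from 122372819 to 122375619, measured 2801 bp and had no other peak within 50 kb. The second, at place 21, measured 2255 bp on chromosome 12 from 116601042 to 116603296, and another peak of 2 to 5 kb followed after 2.21 kb. At place 22 stood a peak on chromosome 2, from 146843221 to 146846609, which measured 3389 bp and had its nearest peak 48.7 kb away.

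Further down these 15, the distance to the next peak of 2 to 5 kb varied. Over the whole class its median was 79.2 kb, with an interquartile range of 18.2 to 207 kb. A peak of 2007 bp on chromosome 6 from 24400113 to 24402119, at place 29, had the next peak of 2 to 5 kb at 491 kb. At place 49 a peak of 2108 bp, on chromosome 6 from 29090517 to 29092624, had it at 163 kb. The peak at place 103, 3109 bp on chromosome 7 from 39883584 to 39886692, was the closest of the 15 to another peak, at 0.831 kb. One at place 141, on chromosome 4 from 133185705 to 133189064, lay inside the 1 Mb window that held 16 such peaks and had 14 other peaks within 100 kb. The widest of the 15, 3680 bp on chromosome 6 from 88944114 to 88947793, stood at place 164, 48.6 kb from its nearest peak.

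The last peak of 2 to 5 kb stood at place 80420, on chromosome 11 from 40462772 to 40465226, and measured 2455 bp, with a neighbour at 0.348 kb. The one before it, at place 72637, measured 2889 bp, on chromosome 11 from 112301971 to 112304859, and a peak stood 268 bp from its edge. Both had a neighbour within 1 kb, as did 57.3% of the class.

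How far the class depends on where one interval ends was measured by joining peaks with gaps of at most 500 bp. Such a gap bordered 2560 of the 6534 (39.2%), against 26.9% of peaks under 2 kb and 42.5% of peaks of 5 kb or more. After joining, 5418 of the 6534 lay in intervals below 5 kb and 1116 (17.1%) in intervals of 5 kb or more, the widest of them 22364 bp. Another 3128 intervals of 2 to 5 kb were made of peaks under 2 kb alone. The class then held 8530 of 68594 intervals.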

How the data were processed

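Bone marrow cells of C57BL/6 mice gave 1 ATF4 ChIP library and 1 input library, and the deposited list holds the peaks of the first against the second, per the labels. The mouse build was GRCm38 and the tools named were Bowtie2, MACS2, deepTools and CASAVA 1.4, per the submitters' processing notes; settings and the peak threshold are not stated there. The deposited values are positions in bases, with starts read as counted from 0. Depth is unknown.

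Peaks on chromosomes 1 to 19 were classed by width, and gaps were measured to the nearest peak of any width on the same chromosome. The end of the last peak stood for the length of a chromosome. Shares have Wilson 95% intervals and medians order-statistic intervals, both for counting error only (Python 3.11.15, scipy 1.17.1, pandas 2.3.3). With 1 ChIP library no test was made. The code was tested on simulated lists. The first 15 members in the list, and the longest 3 chains, with any tied, were named by a rule; other named peaks and windows were chosen after their values were seen, as were the 10 sections, the joining counts and the split by place. Members and settings were chosen with earlier results of these data known. The planned gene assignments, gene lists and motif searches need a mouse annotation or genome and were not run.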

Additional observations from a re-analysis of the deposited data

Results flagged for a closer look

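Peaks of 2 to 5 kb also occurred outside chromosomes 1 to 19, in data that entered none of the comparisons above. The share on chromosomes 1 to 19 was 8.04%, and no other control level was at hand for these peaks. Chromosome X had 88 among 1577 peaks, or 5.58% (Wilson 95% interval 4.55 to 6.82%), and chromosome Y had 6 among 119 (5.04%, 2.33 to 10.6%). Unplaced scaffolds had 15 among 91 (16.5%, 10.3 to 25.4%), on 7 scaffolds. The mitochondrial genome had 2 among 4, of 4123 and 4161 bp, at places 1134 and 1586.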

How the results depend on the processing

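The share of peaks of 2 to 5 kb, 8.04%, was 7.99% with X and Y and 7.91% without chromosome 5. It was 12.4% after joining peaks across gaps of at most 500 bp, 12.9% with a lower bound of 1500 bp and 5.11% with one of 2500 bp. The difference between the highest and lowest chromosome, 3.24 percentage points of peaks, was 8.46 points of covered bases, 2.21 points with the 2500 bp bound and 2.94 without chromosome 5. By covered bases the highest was chromosome 19, at 30.2%, and the lowest chromosome 18, at 21.7%, while chromosome 5 had 28.5%. The median gap of 0.720 kb was 2.93 kb from centre to centre and 79.2 kb to the next peak of the class. It was 0.711 kb with the 2500 bp bound and 0.728 kb without chromosome 5. The median place, 10.6% of the list, was 8.97% with the 2500 bp bound and 13.02% with an upper bound of 3000 bp. It was 10.7% within the chromosome, 10.6% without chromosome 5 and 10.5% when each peak took the middle of its stretch. Leaving out chromosome 5 and taking the middle of the stretch were added after seeing the data. The alternatives for gene starts, genes, gene lists and motifs were not run. No paired analysis was possible because each group has 1 library and no test was made.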
